A study of Rattus norvegicus with 17 samples.

Results

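The genes described are 10 named members of the prostaglandin and lipoxygenase pathways, taken from the table by name. Of the 10, 9 were found among the 17251 genes listed in the deposited table, namely Pla2g4a, Ptgs1, Ptgs2, Ptgds, Hpgd, Alox5, Alox5ap, Alox12 and Alox15. Ptges was not analysed here. The expression of these genes was measured by RNA-sequencing of the meibomian gland (MG), the lipid-secreting gland of the eyelid, in 17 female rats of 10 to 12 weeks of age. The groups were untreated wild-type rats (Control WT, n = 4), untreated P1.hMR rats (Control P1.hMR, n = 5), wild-type rats whose eyelids received UVB irradiation for 5 days (UVB WT, n = 3) and P1.hMR rats given the same irradiation (UVB P1.hMR, n = 5). P1.hMR rats carry the human mineralocorticoid receptor (MR) gene NR3C2 behind its proximal P1 promoter, which is not restricted to the MG, so any tissue that uses this promoter can express the transgene. The model is described on a Sprague-Dawley background.

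Prostaglandins and leukotrienes are short-lived lipid signals made from arachidonic acid. Cytosolic phospholipase A2 (Pla2g4a) frees the fatty acid from membranes, the cyclooxygenases (Ptgs1 and Ptgs2) convert it to prostaglandin H2, and terminal synthases such as Ptgds make the individual prostaglandins, which Hpgd then inactivates. Lipoxygenases use the same substrate: Alox5 with its partner protein Alox5ap opens the leukotriene branch, and Alox12 and Alox15 form hydroperoxides on other carbons. In skin, UV irradiation is a well known inducer of Ptgs2 and of prostaglandin E2.

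The human transgene was listed at 0 TPM (a transcript level scaled to gene length and to the library total) in all 7 WT rats and lay between 5.31 and 9.31 TPM in the 10 P1.hMR rats, while rat Nr3c2 ranged from 6.33 to 25.9 TPM. Each library held 12372 to 12737 genes at 1 TPM or more. The 10 meibocyte markers examined were all present, with summed levels of 18748 to 25274 TPM in a rat. The dissected tissue also held skeletal muscle markers at summed levels of 1567 to 3580 TPM and hair keratins at 176 to 801 TPM. In such tissue, fewer cells of a type and less RNA per cell cannot be told apart.

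In the MG of untreated WT rats, the members ranged from 0.225 to 20.7 TPM in mean level. Ptgds was highest at 20.7 ± 3.96 TPM (SD, n = 4). Alox12 (7.55 ± 0.792 TPM), Alox5ap (6.07 ± 1.22 TPM) and Pla2g4a (5.90 ± 0.987 TPM) followed, and of these Alox5ap and Pla2g4a were closer together than their spread between rats. Ptgs1 stood at 3.36 ± 0.327 TPM and Hpgd at 1.93 ± 0.277 TPM. Alox5 (0.868 ± 0.234 TPM), Alox15 (0.263 ± 0.111 TPM) and Ptgs2 (0.225 ± 0.0238 TPM) lay below 1 TPM, and the last pair did not differ beyond their spread. Among all listed genes the mean level over the 17 rats placed Ptgds at the 62.5 percentile, Ptgs2 at the 27.4 percentile and Alox15 at the 20.1 percentile, so no member belonged to the abundant transcripts of this gland.

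The question of the UVB comparisons was how the pathway changed with irradiation in each genotype. A gene was called changed when limma gave a Benjamini-Hochberg adjusted p under 0.05 over the 13105 genes that reached 1 TPM in at least 3 rats, and when its mean log2(TPM + 1) differed by at least 0.5 in either direction (the log2 fold change). UVB raised Ptgs1 and Ptgs2 and lowered Ptgds in both genotypes, and raised Hpgd in P1.hMR rats. Of the 8 members tested, 3 were called in WT rats, against 7.91% of all genes tested, and 4 in P1.hMR rats, against 10.8%. The WT calls were 2 rises and 1 fall, beside 3.92% and 3.98% of all genes tested, and the P1.hMR calls were 3 rises and 1 fall, beside 5.05% and 5.71%. The median log2 fold change of the members was 0.14 in WT rats and 0.15 in P1.hMR rats, beside 0.01 and -0.02 for all genes tested. Ptgs2 reached 1 TPM only in the 8 irradiated rats, so it entered the test through the groups in which it was high. Alox15 did not reach 1 TPM in any rat and was not part of this test. As the members were chosen with earlier results of these data known, their counts beside these shares are a description.

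**Figure D1:**
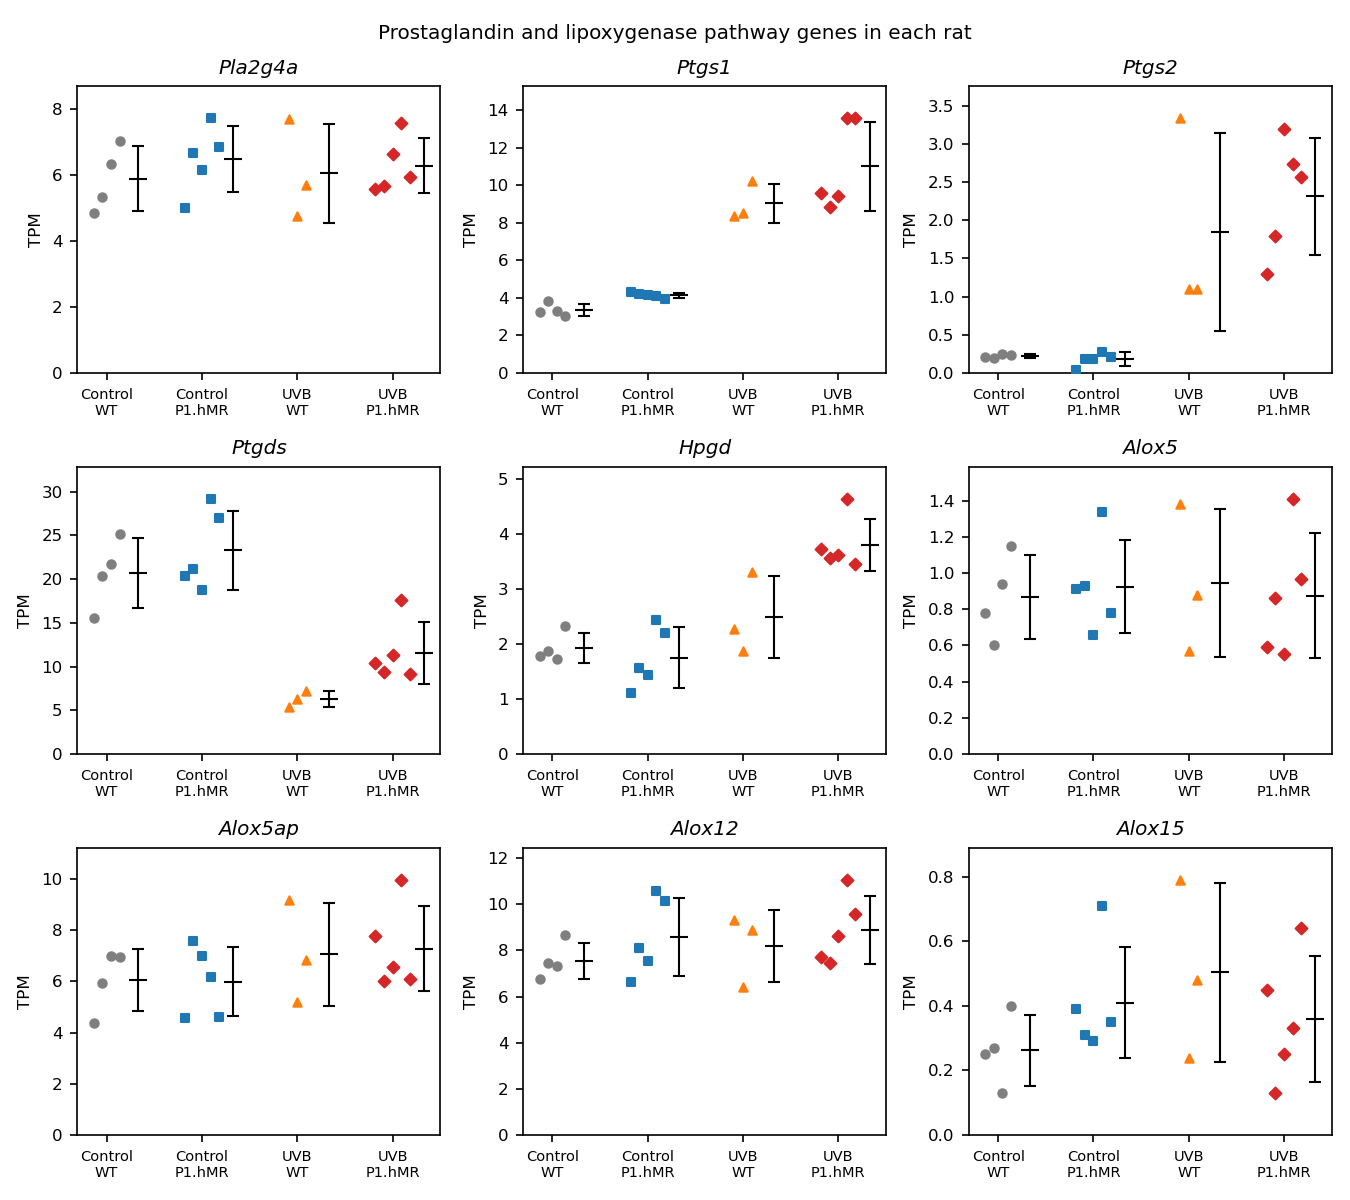
Expression of the 9 listed members in each rat. The vertical axes give TPM on a linear scale from 0, each point is 1 rat, the groups are set side by side and the bars show mean ± SD. Irradiated rats lie above all untreated rats for Ptgs1 and Ptgs2 and below their own genotype's untreated rats for Ptgds, whereas the groups overlap for Pla2g4a, Alox5, Alox5ap and Alox12.

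The windows upstream of Ptgs1, Ptgs2 and Ptgds are shown because these members were called in both genotypes. Each is the 250 bases before the start of the gene in RefSeq, build GRCr8, read 5′ to 3′ on the strand of the gene; 7 of the 9 listed members had an entry. Capitals mark matches, on either strand, to 7 sets of letters: the TATA box, written TATAAA, the E-box, written CACGTG, the cAMP response element, written TGACGTCA, the GC box, written GGGCGG, the CCAAT box, written as in its name, a C/EBP-type site, written TTNNGCAAT, and the palindromic element bound by the mineralocorticoid and glucocorticoid receptors.
Ptgs2, chr13:64713813-64714062, plus strand: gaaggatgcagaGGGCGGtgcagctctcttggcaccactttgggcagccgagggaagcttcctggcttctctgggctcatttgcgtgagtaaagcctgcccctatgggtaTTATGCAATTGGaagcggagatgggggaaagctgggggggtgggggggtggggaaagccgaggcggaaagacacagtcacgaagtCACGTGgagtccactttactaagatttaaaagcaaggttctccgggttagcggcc
Ptgs1, chr3:39981169-39981418, plus strand: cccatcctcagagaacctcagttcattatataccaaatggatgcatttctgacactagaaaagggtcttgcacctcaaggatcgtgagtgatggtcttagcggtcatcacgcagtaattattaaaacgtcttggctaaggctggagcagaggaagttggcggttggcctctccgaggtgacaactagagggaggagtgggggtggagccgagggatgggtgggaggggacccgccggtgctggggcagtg
Ptgds, chr3:28682979-28683228, minus strand: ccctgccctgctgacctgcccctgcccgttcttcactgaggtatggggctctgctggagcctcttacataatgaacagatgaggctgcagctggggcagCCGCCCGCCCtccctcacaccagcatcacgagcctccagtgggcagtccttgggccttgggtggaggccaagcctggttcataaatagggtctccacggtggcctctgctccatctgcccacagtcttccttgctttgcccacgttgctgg

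The Ptgs2 window held 4 of the 7 sets of letters. These were a GC box (238 to 233 bases before the start), a C/EBP-type site (140 to 132), a CCAAT box on the opposite strand that overlaps it (133 to 129) and an E-box (55 to 50). C/EBP-type letters were found in 2.04% and the E-box in 5.59% of the 33469 rat windows, and of the 7 members with a window only Ptgs2 held either. The GC box occurred in 30.5% of all windows and in 5 of the 7 members, Ptgs2, Ptgds, Hpgd, Alox5 and Alox12. The Ptgds window held a pair of overlapping GC boxes on the opposite strand, and the Ptgs1 window held none of the letters searched. Among the members the TATA box letters, present in 12.9% of windows, were found only in Pla2g4a. They lay on the opposite strand, 108 to 103 bases before the start of the gene. The CCAAT box, present in 34.0% of windows, was found among the members only in Ptgs2. The receptor element was found in 4 windows (0.0120%) and the cAMP response element in 1.59%, and neither was in a member's window.

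Pla2g4a, which releases arachidonic acid, is the direct neighbour of Ptgs2 on chromosome 13. It measured 4.86, 5.34, 6.35 and 7.05 TPM in Control WT rats and 7.72, 4.77 and 5.69 TPM in UVB WT rats. In P1.hMR rats it measured 5.02, 6.67, 6.16, 7.74 and 6.85 TPM without UVB and 5.58, 5.66, 6.65, 7.59 and 5.96 TPM with UVB. The groups overlapped throughout. The log2 fold change with UVB was 0.02 in WT (95% interval -0.30 to 0.34) and -0.04 in P1.hMR (-0.30 to 0.23), and neither passed the test.

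Ptgs1 encodes cyclooxygenase-1, the form usually regarded as constitutive. It measured 3.27, 3.82, 3.29 and 3.05 TPM in Control WT rats and 8.38, 8.50 and 10.2 TPM in UVB WT rats. It measured 4.30, 4.19, 4.15, 4.11 and 3.93 TPM in Control P1.hMR rats and 9.57, 8.86, 9.43, 13.58 and 13.56 TPM in UVB P1.hMR rats. Each irradiated rat was above every untreated rat of either genotype. Irradiation multiplied mean TPM by 2.69 in WT rats, and the P1.hMR means differed 2.66-fold. On the log2 scale the rise was 1.20 in WT (SE 0.13, limma adjusted p = 2.99e-05) and 1.20 in P1.hMR (SE 0.11, adjusted p = 1.08e-06).

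Ptgs2 encodes cyclooxygenase-2, the form induced in inflammation. It measured 0.21, 0.20, 0.25 and 0.24 TPM in Control WT rats and 3.34, 1.10 and 1.10 TPM in UVB WT rats. It measured 0.04, 0.19, 0.19, 0.28 and 0.21 TPM in Control P1.hMR rats and 1.29, 1.79, 3.19, 2.74 and 2.57 TPM in UVB P1.hMR rats. No irradiated rat overlapped with an untreated rat, and within UVB WT a single rat was about 3 times as high as the other two. Mean TPM rose 8.21-fold in WT rats, or 4.89-fold without that rat (UVB WT rat 1). In P1.hMR rats it rose 12.7-fold, and the log2(TPM + 1) difference, which understates changes of low genes, was 1.13 in WT (SE 0.23, limma adjusted p = 0.00276) and 1.46 in P1.hMR (SE 0.19, adjusted p = 2.53e-05). Without UVB WT rat 1 the WT difference was 0.78 (adjusted p = 0.0111).

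Although Ptgs2 showed the steeper relative rise, Ptgs1 remained the more abundant cyclooxygenase transcript in each rat. Ptgs2 made up 6.34 ± 1.06% (SD, n = 4) of the summed TPM of the pair in Control WT and 4.22 ± 2.02% (n = 5) in Control P1.hMR. Under UVB the share was 16.6 ± 10.4% (n = 3) in WT, or 10.6% without UVB WT rat 1, and 17.3 ± 4.88% (n = 5) in P1.hMR. The lowest irradiated rat stood at 9.73% and the highest untreated rat at 7.29%. These shares follow from the same values as the fold changes above and were not tested again.

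**Figure D2:**
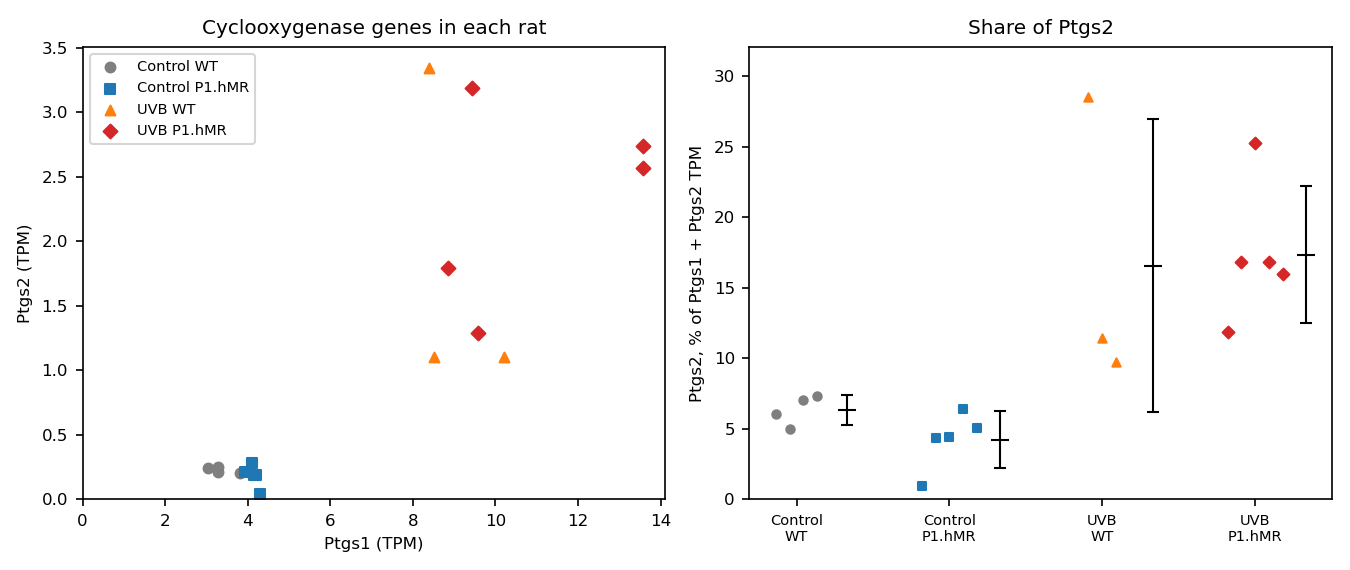
Left, Ptgs2 against Ptgs1 in each rat, both in TPM on linear axes. Right, Ptgs2 as a percentage of the summed TPM of both genes in each rat, with mean ± SD. Untreated rats lie at or below 7.29% and irradiated rats between 9.73% and 28.5%.

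Ptgds encodes the lipocalin-type prostaglandin D2 synthase. It measured 15.56, 20.36, 21.68 and 25.11 TPM in Control WT rats and 5.32, 6.31 and 7.21 TPM in UVB WT rats. It measured 20.35, 21.18, 18.79, 29.16 and 27.03 TPM in Control P1.hMR rats and 10.35, 9.33, 11.31, 17.64 and 9.14 TPM in UVB P1.hMR rats. The irradiated rats were below the untreated rats of their own genotype without overlap. The untreated mean exceeded the irradiated mean 3.29-fold among WT rats and 2.02-fold among P1.hMR rats. On the log2 scale Ptgds fell by 1.56 in WT (SE 0.20, limma adjusted p = 0.000141) and by 0.97 in P1.hMR (SE 0.17, adjusted p = 0.000281). Without UVB P1.hMR rat 4, which stood highest, the log2 fold change in P1.hMR was -1.12 (adjusted p = 3.56e-05). The other prostaglandin D2 synthase, Hpgds, was not called, its log2 values differing by 0.22 between the WT groups (adjusted p = 0.526) and by 0.19 between the P1.hMR groups (adjusted p = 0.452).

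Hpgd encodes 15-hydroxyprostaglandin dehydrogenase, the first enzyme of prostaglandin inactivation. It measured 1.78, 1.87, 1.72 and 2.33 TPM in Control WT rats and 2.27, 1.87 and 3.31 TPM in UVB WT rats, with overlap. It measured 1.10, 1.57, 1.44, 2.44 and 2.20 TPM in Control P1.hMR rats and 3.72, 3.56, 3.61, 4.63 and 3.45 TPM in UVB P1.hMR rats, without overlap. In P1.hMR the mean rose 2.17-fold, a log2 difference of 0.82 (SE 0.14, limma adjusted p = 0.000212). In WT the log2 difference was 0.24 (95% interval -0.11 to 0.58, adjusted p = 0.324), and it was 0.07 without UVB WT rat 3.

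The lipoxygenase members did not pass the test in either genotype. Alox5ap, which presents arachidonic acid to 5-lipoxygenase, measured 4.38 to 7.58 TPM in untreated and 5.18 to 9.97 TPM in irradiated rats. Its log2 fold change was 0.18 in WT (95% interval -0.25 to 0.61) and 0.24 in P1.hMR (-0.11 to 0.60). Alox5, the 5-lipoxygenase itself, stayed between 0.55 and 1.41 TPM in all rats and reached 1 TPM in 4 of the 17. Its log2 fold change was 0.04 in WT (-0.32 to 0.41) and -0.05 in P1.hMR (-0.35 to 0.26).

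Alox12, the platelet-type 12-lipoxygenase, measured 6.77, 7.45, 7.32 and 8.65 TPM in Control WT rats and 9.32, 6.42 and 8.89 TPM in UVB WT rats. It measured 6.62, 8.11, 7.54, 10.57 and 10.13 TPM in Control P1.hMR rats and 7.72, 7.44, 8.63, 11.06 and 9.59 TPM in UVB P1.hMR rats. The groups overlapped, with log2 fold changes of 0.10 in WT (95% interval -0.23 to 0.43) and 0.05 in P1.hMR (-0.22 to 0.32). Alox15 lay between 0.13 and 0.79 TPM. Its log2(TPM + 1) values gave an exact two-sided permutation p = 0.229 for UVB in WT and p = 0.643 in P1.hMR. In GRCr8, Alox12, Alox12e and Alox15 follow one another on chromosome 10. They are related in sequence, so reads could be divided among them and their separate levels are uncertain.

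**Figure D3:**
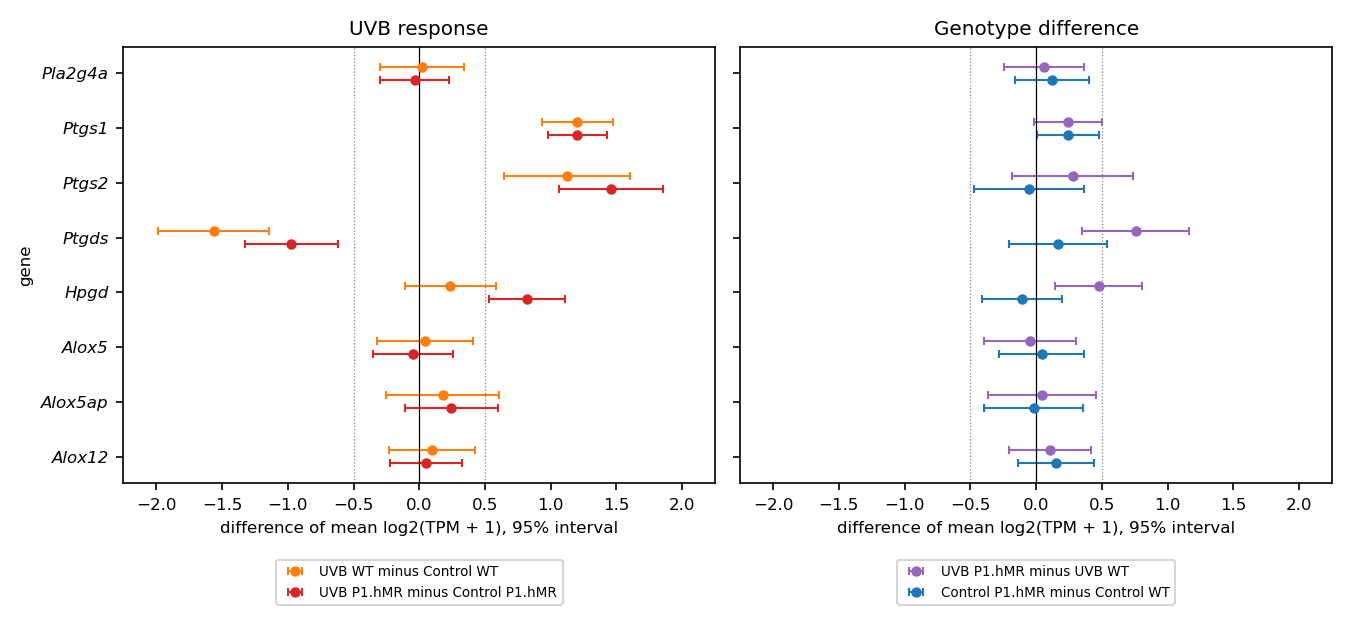
Differences of mean log2(TPM + 1) for the 8 members tested, with 95% intervals from limma. Left, irradiated minus untreated rats in each genotype; right, P1.hMR minus WT rats with and without UVB; dotted lines mark the threshold of 0.5. Ptgs1, Ptgs2 and Ptgds lie beyond the threshold in both genotypes on the left, and the right panel holds no called gene.

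For single values, the exact two-sided permutation test of 3 against 4 WT rats cannot give a p below 0.0571, which Ptgs1, Ptgs2 and Ptgds reached. In P1.hMR rats, Ptgs1, Ptgs2, Ptgds and Hpgd gave an exact p = 0.00794, the smallest that 5 against 5 rats allow. All of the called members had groups that did not overlap, as did 26.6% of all genes tested for UVB in WT and 27.2% for UVB in P1.hMR. The called members kept their call when any 1 rat was left out.

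The genotype comparisons asked whether these genes differed between P1.hMR and WT rats, with or without UVB. No member was called in either, against 0.0229% of all genes tested under UVB and 0.00763% without UVB. These shares include the human NR3C2 transgene itself, which was at 0 TPM in WT rats. It lay at 6.77 to 9.31 TPM in Control P1.hMR and at 5.31 to 8.93 TPM in UVB P1.hMR rats. Without UVB it was the only gene called. With unadjusted limma p under 0.05 there were 1348 genes under UVB and 528 without UVB.

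Under UVB, Ptgds was higher in all 5 P1.hMR rats (9.14 to 17.64 TPM) than in all 3 WT rats (5.32 to 7.21 TPM). The mean was 1.84-fold that of WT and the log2 difference 0.76 (95% interval 0.35 to 1.16), with a limma adjusted p of 0.226. Hpgd likewise did not overlap, at 3.45 to 4.63 TPM in P1.hMR against 1.87 to 3.31 TPM in WT, with a log2 difference of 0.48 (0.15 to 0.81) and an adjusted p of 0.314. For each of the pair the exact permutation p was 0.0357, the smallest that 56 arrangements allow. A lack of overlap was seen for 5.87% of all genes tested in this comparison, and for 1.73% with P1.hMR higher. Without UVB P1.hMR rat 4 the log2 differences were 0.60 for Ptgds and 0.42 for Hpgd. The differences for Ptgs1 (0.24, adjusted p = 0.51) and Ptgs2 (0.28, adjusted p = 0.706) came from overlapping groups. Of the 3 genes called under UVB, 1 was a T cell marker, Cd8a, at 3.07 to 4.82 TPM in P1.hMR against 1.08 to 2.20 TPM in WT (log2 difference 0.89, adjusted p = 0.0364). The other two T cell markers tested were not called, at 0.14 for Cd3e (adjusted p = 0.862) and 0.25 for Cd3g (adjusted p = 0.824), and the 6 markers listed summed to 7.80 to 10.2 TPM in P1.hMR and 3.75 to 8.93 TPM in WT. The part of T cells in the Ptgds and Hpgd values was not tested.

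Without UVB, Ptgs1 was the only member whose genotypes did not overlap, at 3.93 to 4.30 TPM in P1.hMR against 3.05 to 3.82 TPM in WT. Its mean was 1.23-fold that of WT and the log2 difference 0.24 (95% interval 0.00 to 0.48), with a limma adjusted p of 0.998 and an exact permutation p of 0.0159, the smallest that 126 arrangements allow. A lack of overlap was seen for 1.03% of all genes tested without UVB, and for 0.42% with P1.hMR higher. The other 7 members tested had log2 differences between -0.11 for Hpgd and 0.16 for Ptgds.

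The interaction, which compares the UVB response of P1.hMR rats with that of WT rats, was called for none of the 8 members and for 0% of all genes tested. The tool was limma, whose smallest adjusted p was 0.306, and 907 genes had an unadjusted p under 0.05. For Hpgd the UVB response was 0.58 higher in P1.hMR on the log2 scale (95% interval 0.13 to 1.03, adjusted p = 0.704), and an exact permutation of genotype within treatment over 7056 arrangements gave p = 0.0354 before adjustment for the members examined. For Ptgds it was 0.59 higher (0.04 to 1.14, adjusted p = 0.711, exact p = 0.135). For Ptgs1 the difference of responses was 0.00 (-0.35 to 0.35) and for Ptgs2 it was 0.33 (-0.29 to 0.95). The call of Hpgd in P1.hMR alone is therefore not shown to be a difference between the genotypes.

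The wider pathway was described with 5 lists of 63 further genes, of which 56 were listed and 47 tested. Like the members, these lists were chosen with earlier results of these data known, so their counts are a description. In WT rats 7 were called (4 higher and 3 lower) and in P1.hMR rats 15 (8 higher and 7 lower), against the same 7.91% and 10.8% of all genes tested. None was called between the genotypes or for the interaction. The median log2 fold change of the 47 was 0.04 in WT and -0.02 in P1.hMR.

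Among the other phospholipases A2, 3 of the 15 tested were called in WT and 5 in P1.hMR. Pla2g4f, a cytosolic phospholipase, rose from 4.56 to 5.50 TPM in Control WT to 7.88 to 16.89 TPM in UVB WT, a log2 fold change of 0.90 that was 0.58 without UVB WT rat 3, and by 1.11 in P1.hMR. Plaat3, a phospholipase and acyltransferase, fell from 12.58 to 16.15 TPM to 7.20 to 8.96 TPM in WT (log2 fold change -0.81) and by 0.90 in P1.hMR. In P1.hMR rats Pla2g4e, a calcium-dependent acyltransferase, fell with a log2 fold change of -0.65 (adjusted p = 0.0418) and Pla2g4d, of the same family, rose with 0.59, although the groups of both overlapped. The call of Pla2g4e was lost when any of 8 of the 10 P1.hMR rats was left out, and that of Pla2g4d without Control P1.hMR rat 2. Pla2g2f, a secreted phospholipase of the epidermis named after its values were seen, fell by 0.94 in WT and by 0.53 in P1.hMR.

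Of the 12 other genes of prostanoid synthesis, catabolism and transport tested, the same pair was called in both genotypes. Ptgr1, a reductase that inactivates prostaglandins and leukotriene B4, rose by 0.66 in WT and by 0.78 in P1.hMR, from 94.3 to 135 TPM in untreated to 171 to 240 TPM in irradiated rats. Cbr3, a carbonyl reductase, rose by 0.69 and 0.77 on the same scale. The remaining prostaglandin E synthases did not pass, with log2 fold changes of 0.04 and -0.02 for Ptges2 and of 0.12 and 0.28 for Ptges3 in WT and P1.hMR; the latter had an adjusted p of 0.00379 but lay under the threshold of 0.5.

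Of 6 prostanoid receptors tested, Ptger4, the EP4 receptor of prostaglandin E2, was the only one called, with a log2 fold change of -0.73 in P1.hMR (8.38 ± 2.48 to 4.56 ± 0.958 TPM, SD, n = 5 and 5) and -0.50 in WT, where its adjusted p was 0.0848. Ptgir, the prostacyclin receptor, had log2 fold changes of 0.40 and 0.37, adjusted p = 0.0299 and 0.00855, under the fold threshold.

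On the leukotriene side, 1 of 8 genes tested was called in WT and 3 in P1.hMR. Mgst2, a microsomal transferase able to make leukotriene C4, rose by 0.54 in WT, a call that was lost without Control WT rat 1 or UVB WT rat 3, and by 0.58 in P1.hMR. Ggt1, which turns leukotriene C4 into D4, rose by 0.81 in P1.hMR whereas its WT difference of 0.58 had an adjusted p of 0.137. Ltc4s, leukotriene C4 synthase, fell in P1.hMR from 2.06 to 4.30 TPM to 0.97 to 1.51 TPM (log2 fold change -0.90, adjusted p = 0.000778), beside 0.00 in WT.

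Of the 6 other lipoxygenases and hydrolases tested, Alox12e, the epidermal-type 12-lipoxygenase next to Alox12, fell in both genotypes. Its mean went from 39.8 ± 12.8 TPM (n = 4) to 9.80 ± 3.32 TPM (n = 3) in WT and from 40.9 ± 10.7 TPM (n = 5) to 10.0 ± 1.81 TPM (n = 5) in P1.hMR, log2 fold changes of -1.92 (adjusted p = 0.000165) and -1.91 (adjusted p = 6.67e-06), with no overlap. Its neighbour Alox12 had log2 fold changes of 0.10 and 0.05 in the same rats. Alox12b, the 12R-lipoxygenase of the epidermal barrier, rose by 0.85 and Ephx3, an epoxide hydrolase of the epidermis, by 0.79 in P1.hMR, beside differences of 0.30 and 0.33 in WT that did not pass the test. Ephx2, the soluble epoxide hydrolase, fell by 0.56 in P1.hMR (adjusted p = 0.0446), a call that was lost when any 1 of the 10 P1.hMR rats was left out.

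**Figure D4:**
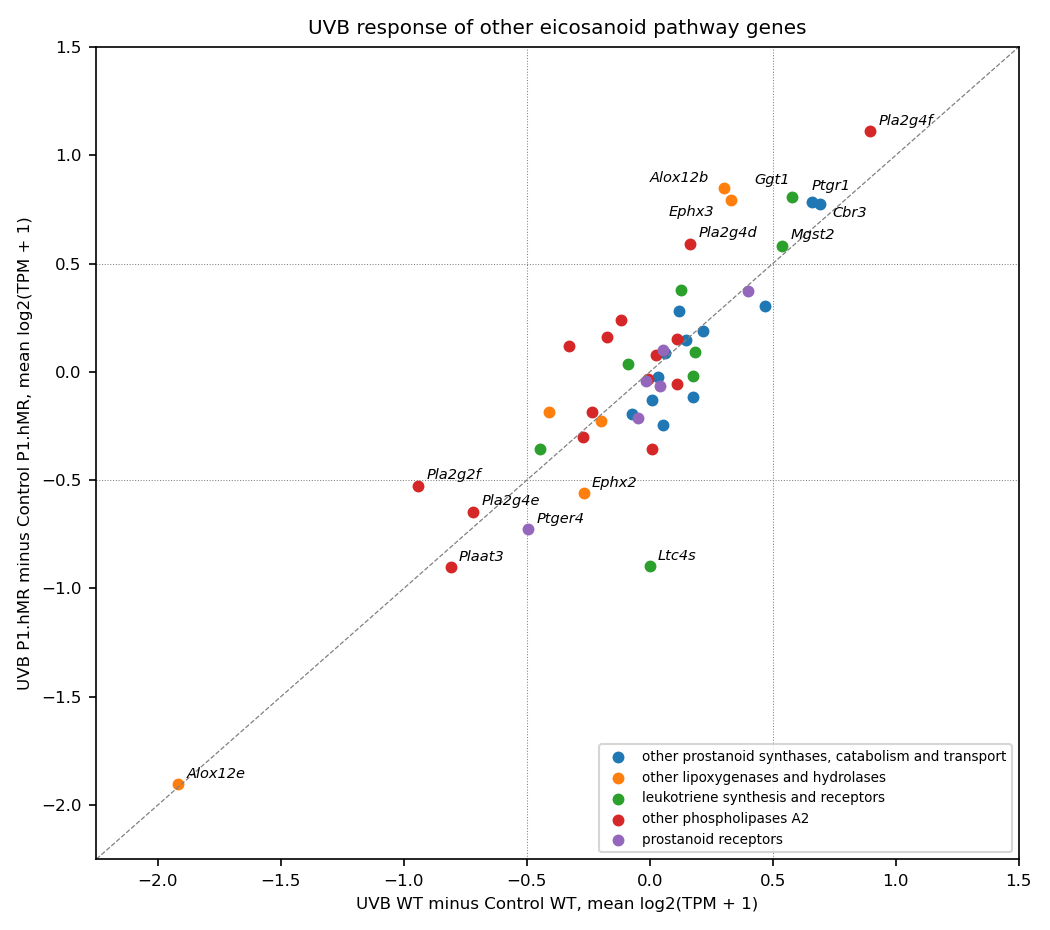
UVB response of the 47 other eicosanoid pathway genes tested, as differences of mean log2(TPM + 1), in WT (horizontal) and P1.hMR rats (vertical). Each point is 1 gene coloured by list, the dashed line marks equal responses and dotted lines the threshold of 0.5. Alox12e lies at -1.92 and -1.91, and Ltc4s at 0.00 and -0.90.

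Some markers of other cell types also changed with UVB. The 9 mast cell markers summed to 30.4 to 43.6 TPM in untreated and 51.9 to 93.7 TPM in irradiated rats of both genotypes, and 3 of 7 tested were called higher in WT (Cpa3, Hdc and Tpsab1) and 6 of 7 in P1.hMR. The 11 macrophage and monocyte markers summed to 106 to 189 TPM without UVB and 165 to 306 TPM with UVB, with 7 called higher in each genotype. The other 4 were not called. Mean Cd68 went from 39.8 to 30.1 TPM in WT and from 37.9 to 30.7 TPM in P1.hMR. Csf1r went from 13.0 to 13.2 TPM in WT and from 14.4 to 13.3 TPM in P1.hMR. Adgre1 went from 0.908 to 1.01 TPM and from 1.30 to 1.00 TPM, and Aif1 from 6.62 to 10.4 TPM and from 7.86 to 11.8 TPM. Mast cells and macrophages are known to express Ptgs1 and Alox5ap, of which only Ptgs1 was called. The part of these cells in the rise of Ptgs1 was not tested.

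The 6 melanocyte markers summed to 69.5 to 131 TPM in Control WT, 84.8 to 130 TPM in Control P1.hMR, 51.6 to 60.7 TPM in UVB WT and 71.7 to 126 TPM in UVB P1.hMR. Of these, 4 were called lower in WT (Mlana, Pmel, Slc45a2 and Tyr) and none of the 6 in P1.hMR. Ptgds was likewise lowest in UVB WT, and UVB P1.hMR rat 4 had the highest Ptgds, Hpgd, mast cell, macrophage and melanocyte values of its group. That rat also had the highest fibroblast (1798 TPM) and hair keratin (406 TPM) sums of its group. It was highest as well in Ptgs1 (13.58 TPM), Alox5 (1.41 TPM), Alox5ap (9.97 TPM), Alox12 (11.06 TPM) and Pla2g4a (7.59 TPM). It was not highest in Ptgs2 (2.74 TPM) or Alox15 (0.33 TPM). Untreated rats went either way. Control P1.hMR rat 4 had the highest Ptgds of its group (29.16 TPM) but the lowest melanocyte sum (84.8 TPM). Control WT rat 1 had the lowest of both in its group (15.56 and 69.5 TPM). The part of melanocytes in the level of Ptgds was not tested.

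**Figure D5:**
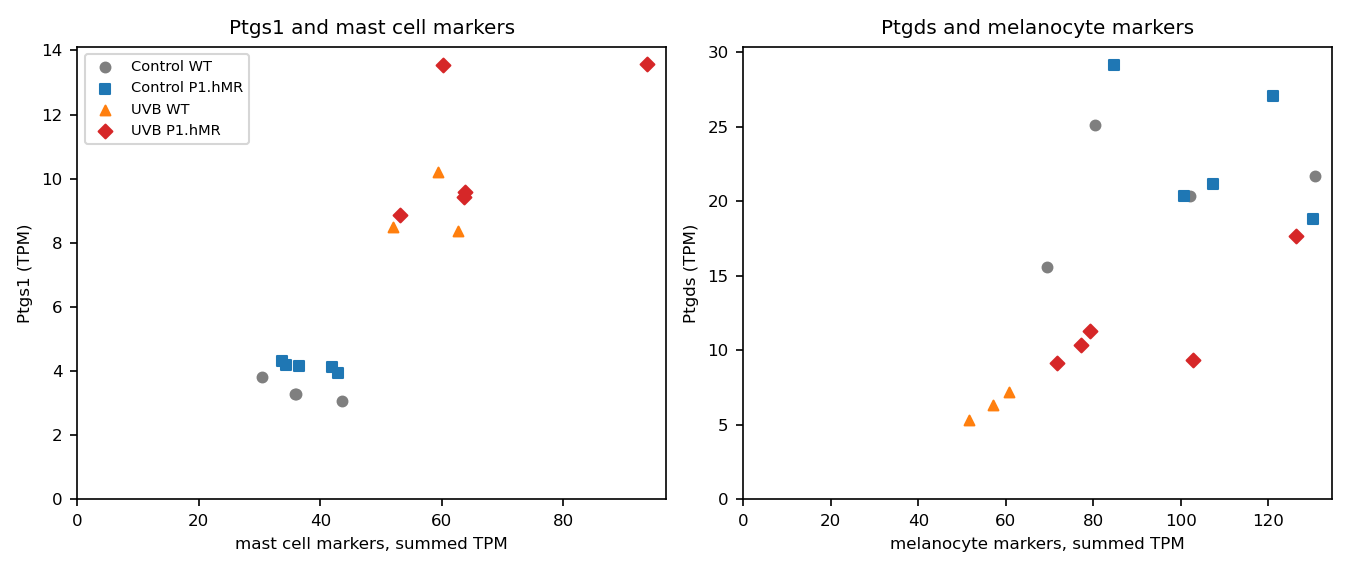
Left, Ptgs1 against the summed mast cell markers; right, Ptgds against the summed melanocyte markers, all in TPM, with 1 point for each rat. Irradiated rats lie at or above 51.9 TPM of mast cell markers and 8.38 TPM of Ptgs1, and the 3 UVB WT rats hold both the lowest melanocyte sums and the lowest Ptgds.

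Of the remaining lists, Awat2 was called lower and Elovl3 and Fabp5 higher among 10 meibocyte markers in both genotypes, with Dgat2 lower in P1.hMR. Ivl and Krt77 fell among 7 suprabasal markers in both, and 4 hair keratins of 8 fell in WT and 2 in P1.hMR. Dcn, Lum and Pdgfra rose among 6 fibroblast markers in both, with Col1a1 lower in P1.hMR, and Vwf among 6 endothelial markers and Cd8a among 3 T cell markers tested rose in both. Csf3r rose in both and S100a9 in P1.hMR among the 3 tested of 9 neutrophil markers listed, S100a9 being also a keratinocyte gene. Csf3r lay at or below 0.40 TPM in untreated rats, so it entered the test through the irradiated groups in which it was high. Likewise, Krt77 reached 1 TPM only in untreated rats. Elane was above 0 in at least 1 UVB P1.hMR rat and at 0 in each rat of the other 3 groups. No basal epithelial or skeletal muscle marker was called, and none of the 4 eosinophil markers, which summed to at most 0.75 TPM in a rat, could be tested.

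As a description of how members varied within groups, the deviations of each rat from its group mean were correlated over the 17 rats, which share library totals and tissue composition. Alox12 and Pla2g4a had r = 0.84, Alox12 and Hpgd 0.83, Ptgds and Hpgd 0.73, and Ptgs2 and Pla2g4a 0.71. Ptgs1 and Ptgs2 had r = 0.09. The UVB WT rat with the high Ptgs2 (rat 1, 3.34 TPM) also had the highest Pla2g4a (7.72 TPM), Alox5 (1.38 TPM), Alox5ap (9.19 TPM), Alox12 (9.32 TPM) and Alox15 (0.79 TPM) of its group, but the lowest Ptgs1 (8.38 TPM) and Ptgds (5.32 TPM). For each member, 9934 or 9935 genes with a mean of at least 5 TPM were compared and the top 2 were picked. Picking the top of so many raises r, and how high unrelated genes would reach was not tested. Those closest to each member were Strn (0.81) and Tnnt2 (0.80) for Ptgs1, Tubb6 (0.88) and Pgap4 (0.86) for Ptgs2, Rnf4 (0.87) and Mettl7a (0.85) for Ptgds, and Chn2 (0.92) and AABR07051376.1 (0.90) for Hpgd. They were Lsm5 (0.87) and Rap1b (0.85) for Alox5, Ptk2b and Pcsk6 (both 0.88) for Alox5ap, Dennd1a (0.95) and Sox13 (0.92) for Alox12, and Dlg3 (0.94) and Sdc2 (0.92) for Pla2g4a.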

How the data were processed

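RNA from the MG of 17 rats was sequenced. The paper's methods name FastQC, STAR and RSEM, and the submitters' processing notes name FastQC, Trimmomatic, DRAGEN, Picard and the build rn7; which route made the table is not resolved, and the annotation is not given in the sources used here. The authors deposited TPM for 17251 genes with 2 decimals, and 12 genes were at 0 in each rat. TPM keeps no counts, so no counting error was computed and precision comes from the spread between rats. The paper's methods give a range of mapped reads, but the depth of each library is unknown. The study's own count test could not be applied to TPM. According to the study, either a single eye was analysed or both eyes were pooled as a single sample. Each library was therefore taken as 1 rat. The methods count eyes for the irradiated groups and rats for the untreated groups, so which applied to each library is not known.

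Groups were taken from the labels. Values were analysed as log2(TPM + 1) with limma 3.58.1 in R 4.3.3 (variance trend, all 17 rats, 4 group means, two-sided) for 5 comparisons, after dropping genes that reached 1 TPM in fewer than 3 rats. Single values were tested by exact permutation, doubling the smaller tail, with Python 3.11.15, numpy 2.4.6, scipy 1.17.1 and pandas 2.3.3; figures were drawn with matplotlib 3.10.9. On simulated data over 13105 genes, each comparison held 100 genes changed by a log2 of 1 and 100 changed by 2. Of the changes of 1, the model recovered 93% in the WT comparison of UVB, 95% in each of the P1.hMR and genotype comparisons and 82% in the interaction. In the data only 3 genes were called for genotype under UVB, 1 without UVB and 0 for the interaction. An adjusted p depends on how many genes change, so the simulated shares do not give the recovery in those comparisons. Changes under 1 were not simulated. The recovery of differences as small as those of the members between genotypes is therefore not known.

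The members, the 5 pathway lists and the 13 marker lists were chosen with earlier results of these data known. All members were named, with up to 4 called genes of each pathway list, those of largest change in P1.hMR, and the 2 genes most alike each member. Replicate numbers did not pair the rats. Alternatives were a pseudocount of 0.1, no filter, a mean of at least 5 TPM, quantile and median-of-ratios scaling, only the groups compared, no trend, array weights, a replicate block, other fold thresholds and leaving out each rat.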

Additional observations from a re-analysis of the deposited data

Results flagged for a closer look

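Of 72 groups of 4 or 5 rats examined, over the members, the named pathway genes and the Ptgs2 share, 5 held a rat standing apart from the others of its group by Dixon's test, where chance alone gives about 1 in 20. Ptgds was 17.64 TPM in UVB P1.hMR rat 4, against 9.14 to 11.31 TPM in the other 4 rats. Hpgd was 4.63 TPM in the same rat, against 3.45 to 3.72 TPM. Alox15 was 0.71 TPM in Control P1.hMR rat 4, against 0.29 to 0.39 TPM. Pla2g4e was 149.54 TPM in UVB P1.hMR rat 3, against 86.12 to 99.05 TPM. Ephx3 was 15.22 TPM in Control WT rat 3, against 10.6 to 11.12 TPM.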

How the results depend on the processing

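The calls of Ptgs1, Ptgs2 and Ptgds in both genotypes and of Hpgd in P1.hMR kept their direction under each alternative that tested them, and no member was called between genotypes under any. A mean of at least 5 TPM left Ptgs2, Hpgd and Alox5 untested, so 2 members were called in each genotype. With a log2 threshold of 1, Ptgds and Hpgd were not called in P1.hMR, which left 2. That threshold left 1 other pathway gene in WT and 2 in P1.hMR. Over all genes, the count for UVB in WT was 690 at a mean of at least 5 TPM, 2820 with no fold threshold and 219 at a log2 threshold of 1; for UVB in P1.hMR it was 882, 5123 and 300. Under UVB the genotype count of 3 became 1 with a pseudocount of 0.1 and with only the groups compared. It became 0 at a mean of at least 5 TPM. Without UVB the count of 1 became 0 at that filter. The filter on the mean leaves the human NR3C2 untested in both comparisons. The cause of the other changes was not tested.

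Leaving out 1 rat gave 927 to 1100 genes for UVB in WT (3 members, 6 to 9 other pathway genes) and 1290 to 1457 for UVB in P1.hMR (4 members, 11 to 15). It gave 1 to 51 for genotype under UVB (51 without UVB WT rat 3), 1 to 6 without UVB (6 without Control WT rat 4) and 0 to 8 for the interaction (8 without UVB WT rat 3), with 0 members in these. Same-numbered rats had correlations of -0.19 to 0.24, so the numbers were not taken as pairs. The replicate block gave 1 gene for genotype under UVB and left the counts of members at 3, 4 and 0. The block turned near-zero log2 values of Ptgs1 (interaction, -0.026), Alox5ap (genotype without UVB, 0.042), Alox12 (genotype under UVB, -0.033), Pla2g4a (genotype under UVB, -0.022) and Ltc4s (UVB in WT, 0.11), and under it Pla2g4e in P1.hMR had an adjusted p of 0.0511. Other sign changes near 0 were Ptgs1 for the interaction (-0.034, pseudocount 0.1), Pla2g4a for UVB in WT (-0.012, array weights) and Ltc4s for UVB in WT (0.010 with the pseudocount of 0.1 and 0.0019 with quantile scaling). Leaving out 1 rat also turned uncalled log2 values near 0. These ranged, for UVB in WT, from -0.11 to 0.19 for Alox5, -0.0061 to 0.35 for Alox5ap, -0.14 to 0.16 for Pla2g4a, -0.013 to 0.36 for Pla2g4d, -0.094 to 0.17 for Ltc4s and -0.50 to 0.12 for Ephx2. For UVB in P1.hMR they ranged from -0.14 to 0.027 for Alox5, -0.029 to 0.12 for Alox12 and -0.11 to 0.023 for Pla2g4a. For genotype under UVB they ranged from -0.19 to 0.11 for Alox5, -0.13 to 0.23 for Alox5ap, -0.043 to 0.19 for Alox12 and -0.075 to 0.22 for Pla2g4a, and without UVB from -0.031 to 0.11 for Alox5 and -0.14 to 0.056 for Alox5ap. For the interaction they ranged from -0.073 to 0.085 for Ptgs1, -0.23 to 0.066 for Alox5, -0.11 to 0.25 for Alox5ap, -0.20 to 0.041 for Alox12 and -0.19 to 0.10 for Pla2g4a. Without the filter, the P1.hMR calls of Pla2g4e (adjusted p = 0.0604) and Ephx2 (0.0635) were lost, and that of Ephx2 also with median-of-ratios scaling (0.0515) and with no variance trend (0.0518).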
